A study of Mus musculus with 10 samples.

Results

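The conv-dSVA_D line, mouse embryonic stem cells in which the label names only SVA_D as deleted and SVA_F is therefore kept, was set against the 2 lines in which SVA_F is deleted, conv-dSVA_F and conv-dSVA_F&D. Libraries were chosen by these labels: 2 of conv-dSVA_D, 2 of conv-dSVA_F and 2 of conv-dSVA_F&D, with 1 wild-type library as the outside reference, or 7 of the 10 samples of the series. Genes were then described where both conv-dSVA_D libraries lay outside the range of the other 4 converted libraries. All 3 converted lines carry pCAGiCre[null], loxP[Taf1_i24] and LPSwapinRed_pUC19[Taf1_3_4], pSpCas9GFP[null] and pSpCas9[null], and a converted Taf1_humanization allele built from a mousified hTAF1 at [Taf1_1_2]. That allele bears dSVA2 in conv-dSVA_D, SVAdel in conv-dSVA_F, and both in conv-dSVA_F&D. The wild type is the line MK6, with none of these alleles, so every comparison with it spans the whole engineering history. All cells were C57BL/6J embryonic stem cells grown on gelatin with serum, LIF, 3 µM of the GSK3 inhibitor CHIR99021 and 1 µM of the MEK inhibitor PD0325901. Each genotype is represented by 1 named line with no clone stated, so line and genotype cannot be told apart. The p-values measure the spread between libraries. The labels do not say whether the libraries of a genotype are separate clones, cultures or technical replicates. Those of conv-dSVA_F&D differed over chromosome 18, with median log2 differences from the wild type of -0.03 in replicate 1 and 0.51 in replicate 2.

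SVA elements are composite retrotransposons of apes and humans, moved by the LINE-1 machinery, and mice have none of their own. An SVA_F insertion in an intron of human TAF1 is the variant associated with X-linked dystonia parkinsonism, in which neurons of the striatum are lost. TAF1 is the largest subunit of TFIID, the complex that places RNA polymerase II at core promoters, and it carries bromodomains and a scaffold for the other TAF proteins. Embryonic stem cells are a frequent host for such engineered alleles because they can be edited, cloned and differentiated. In culture a small fraction of them enters a transient state that shares transcripts with the embryo at the 2-cell stage, including the Zscan4 genes.

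Levels are normalized counts, which are the authors' gene counts divided by 1 size factor per library. The recovered reads numbered from 16588467 in conv-dSVA_F&D replicate 2 to 26562418 in conv-dSVA_D replicate 2. A listed 0 allows for 3 reads, or 2.45 to 4.18 normalized counts by library, counting error only. The summed level of 8 embryonic stem cell markers was 156821 and 160466 in conv-dSVA_D and 126019 to 142994 in the other converted libraries, against 145858 in the wild type, so the labelled cell type carried its markers in every library. The summed level of 9 feeder and fibroblast markers was 4213 and 3270 in conv-dSVA_D, 1915 and 2492 for conv-dSVA_F, 2257 and 4469 for conv-dSVA_F&D, and 3220 for wild type, and 6 of the 9 passed the level filter. Most of that sum was Vim, the intermediate filament gene vimentin, at 4096 and 3177 in conv-dSVA_D, 1661 to 4267 in the other 4 and 2574 in the wild type (adjusted p = 0.276, limma). The markers Dcn, Postn and Col3a1 were at 0 in both conv-dSVA_D libraries and at most 4.25 in the other 4. The wild type was highest for Postn (57.9), Col3a1 (14.2), Col1a1 (69.9), Col1a2 (96.1) and Acta2 (299), and not for Dcn, Thy1, Pdgfrb and Vim. The highest converted library had 36.6 for Col1a1, 8.36 for Col1a2 and 115 for Acta2. The cells are measured in bulk, so fewer cells of a type and less RNA per cell cannot be told apart. Whether the SVA insertions themselves were present was not analysed here.

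Of the genes that passed the test between conv-dSVA_D and the SVA_F-deleted lines, most were lower in conv-dSVA_D. Of 15240 genes with a mean of at least 10 normalized counts, 290 (1.90%) passed an adjusted p of 0.05 between conv-dSVA_D and the mean of conv-dSVA_F and conv-dSVA_F&D (limma, Benjamini-Hochberg over all tested genes), and these are the called genes below. Of them 215 were lower in conv-dSVA_D (1.41% of tested genes) and 75 were higher (0.492%). The median log2 difference was -1.10 over the genes called lower and 0.69 over those called higher, against 0.01 over all tested genes. At least 2-fold differences were seen in 124 called genes in the lower direction and in 15 in the higher direction. These calls rested on having both conv-dSVA_D libraries: limma called 0 genes without conv-dSVA_D replicate 1 (1367 genes had an unadjusted p under 0.05) and 31 without replicate 2. When the 4 SVA_F-deleted libraries were fitted as 1 group, so that the spread between conv-dSVA_F and conv-dSVA_F&D counted as error, limma called 14 genes. Those were H19, B020031M17Rik, AA623943, Gm6494, Tmem92, Zscan4a, Pramel31, Gm4971, Eif1ad15, Ckmt1, Sema5a and Rnf128, lower in conv-dSVA_D, and Tro and Tex13b, higher in it, and all 14 were among the 290.

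**Figure D1:**
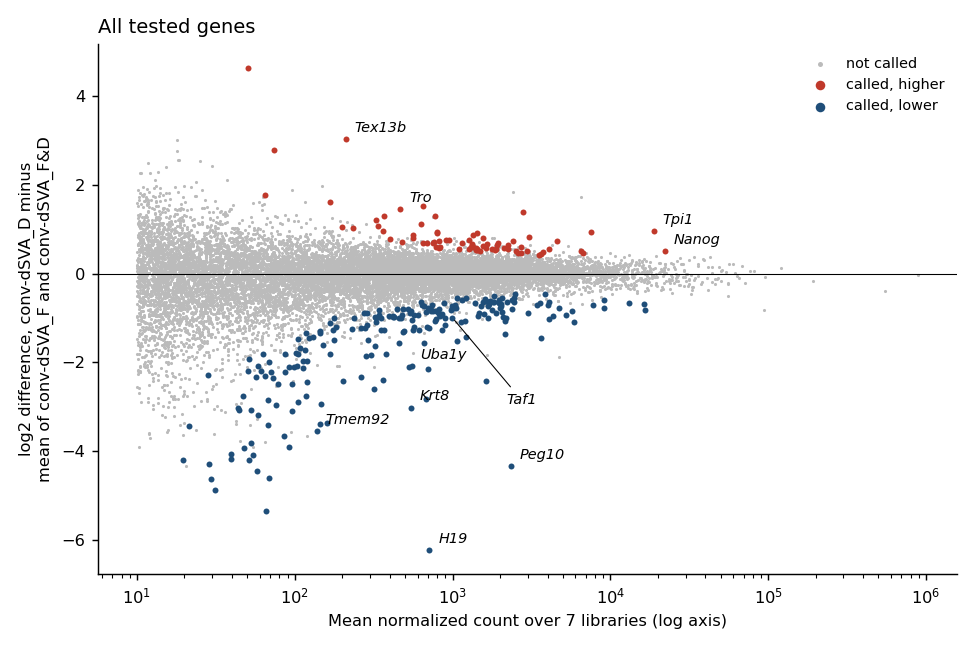
Log2 difference of conv-dSVA_D minus the mean of conv-dSVA_F and conv-dSVA_F&D (y axis) against the mean normalized count over 7 libraries (x axis, log) for the 15240 tested genes. Grey points did not pass the test, red points (75) were called higher and blue points (215) lower in conv-dSVA_D, and 10 genes are named.

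Non-overlap by itself was common. Both conv-dSVA_D libraries lay outside the range of the other 4 for 3585 tested genes (23.5%), above it for 1755 (11.5%) and below it for 1830 (12%). With a gap of at least 1.5-fold between the nearest libraries the count was 363, of which 52 were above and 311 below. Of the 290 called genes 278 lay outside the range and 12 overlapped it. The edge of the rule is shown by Gtf2a1, a subunit gene of TFIIA, and Hmgcs1, a cholesterol synthesis gene. Gtf2a1 had 2825 and 2248 normalized counts in conv-dSVA_D, 2168 and 1869 for conv-dSVA_F, 1419 and 1195 for conv-dSVA_F&D and 1602 for wild type, just outside the range. Hmgcs1 had 2883 and 2762 in conv-dSVA_D, 2824 and 3143 for conv-dSVA_F, 4944 and 5036 for conv-dSVA_F&D and 5374 for wild type, and overlapped conv-dSVA_F.

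Taf1, the edited gene (ENSMUSG00000031314, X:101532734-101601789, plus strand, GRCm38), was lowest in conv-dSVA_D. It had 362 and 418 normalized counts in conv-dSVA_D, 501 and 589 for conv-dSVA_F, 1116 and 1088 for conv-dSVA_F&D, and 2898 for wild type. No group overlapped another, and conv-dSVA_F stood nearest to conv-dSVA_D, with 1.20-fold between their closest libraries. The log2 difference of conv-dSVA_D from the SVA_F-deleted mean was -0.99 ± 0.13 (SE, adjusted p = 0.0116 by limma). Taken alone, the difference from conv-dSVA_F&D passed (adjusted p = 0.00456) and the difference from conv-dSVA_F did not (adjusted p = 0.155). Conv-dSVA_D held 13.5% of the wild-type level on average. With the 4 libraries as 1 group the adjusted p was 0.302, and it was 0.146 and 0.0663 without conv-dSVA_D replicate 1 or 2. The sources used here do not say whether reads from the human-derived stretch of the allele were counted to Taf1.

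Among the partners of Taf1 in TFIID, Taf5 and Taf6 rose in conv-dSVA_D. Of 18 tested TFIID genes 2 were called higher and 1, Taf1, lower, against 0.492% and 1.41% of all tested genes. The median log2 difference was 0.31 over the list against 0.01 over all tested genes. In 9 of the 18 both conv-dSVA_D libraries lay above the other 4, set against 11.5% of all tested genes. Taf5, whose product forms a core scaffold of the TFIID lobes, had 1781 and 1843 normalized counts in conv-dSVA_D, 1027 and 1205 for conv-dSVA_F, 1138 and 928 for conv-dSVA_F&D and 922 for wild type. Its conv-dSVA_D libraries were above all others, by a log2 difference of 0.76 ± 0.13 (adjusted p = 0.0215, limma). Taf6, a histone-fold subunit that pairs with TAF9, had 2222 and 2039 in conv-dSVA_D, 1292 and 1662 for conv-dSVA_F, 1288 and 1304 for conv-dSVA_F&D and 1146 for wild type. Its difference was 0.63 ± 0.12 (adjusted p = 0.0397, limma). Leaving out conv-dSVA_D replicate 1 or 2 left 0 of the 18 called by limma (4 and 6 at an unadjusted p under 0.05), and treating the 4 libraries as 1 group also left 0 (7 at an unadjusted p under 0.05). In the wider list of RNA polymerase II and general factors 1 of 33 was called, Gtf2a1 (0.64 ± 0.13, adjusted p = 0.0440, limma), and 8 of the 33 were above the other 4 libraries.

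Genes of the 2-cell-like state were called lower in conv-dSVA_D for 9 of 19 tested members, against 1.41% of all tested genes. The highest level lay in the wild type for 15 of the 19. Of 28 listed genes 25 were in the table and 19 were tested, and all 19 had a mean of at least 10 without the wild type as well. None was called higher by limma, edgeR or DESeq2, the median log2 difference was -2.12, and 13 lay below all other converted libraries against 12% of tested genes. Tmem92, a transmembrane protein gene of this state, had 9.60 and 11.4 normalized counts in conv-dSVA_D, 175 and 102 for conv-dSVA_F, 174 and 102 for conv-dSVA_F&D, and 389 for wild type. The conv-dSVA_D libraries were apart from all others by at least 8.25-fold, and the log2 difference was -3.55 ± 0.36 (adjusted p = 0.00591, limma). Tmem92 was also among the 14 genes called with the 4 libraries as 1 group.

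The Zscan4 genes encode SCAN-domain zinc-finger proteins of the late 2-cell embryo, known for telomere maintenance in mouse stem cells. Zscan4d (7:11161374-11166159, minus strand) had 16.3 and 15.5 normalized counts in conv-dSVA_D, 242 and 142 for conv-dSVA_F, 110 and 72.4 for conv-dSVA_F&D, and 428 for wild type. Zscan4c (7:11005745-11010547, plus strand) had 22.1 and 8.98 in conv-dSVA_D, 140 and 99.5 for conv-dSVA_F, 97.1 and 80.8 for conv-dSVA_F&D, and 371 for wild type. In both genes the order was conv-dSVA_D lowest, the SVA_F-deleted libraries in the middle and the wild type highest, with no overlap. The mean of at least 100 by which the largest differences were named includes the wild type, and without it Tmem92, Zscan4a, Zscan4c and Zscan4d average 95.6, 97.2, 74.8 and 99.7. The log2 differences from the SVA_F-deleted mean were -2.94 ± 0.34 for Zscan4d (adjusted p = 0.00683) and -2.77 ± 0.40 for Zscan4c (adjusted p = 0.0142), and from the wild type -4.66 ± 0.48 and -4.62 ± 0.56 (all by limma, both contrasts sharing the conv-dSVA_D libraries). Zscan4a, annotated as an unprocessed pseudogene, had 9.60 and 15.5 in conv-dSVA_D, 147 and 119 for conv-dSVA_F, 199 and 93.3 for conv-dSVA_F&D, and 535 for wild type. The copies are nearly identical, so how reads were divided among them is uncertain, and their calls are not separate evidence. The promoters of Zscan4c and Zscan4d are shown because these copies moved together: 281 of 289 paired positions were identical (97.2%), with 22 gap positions in the alignment. They are the RefSeq stretches from 250 bases before to 50 after the gene start, at chr7:11005495-11005794 (plus strand) and chr7:11166099-11166398 (minus strand) of GRCm38.p6, written 5′ to 3′ with TATAAA in capitals.
Zscan4c: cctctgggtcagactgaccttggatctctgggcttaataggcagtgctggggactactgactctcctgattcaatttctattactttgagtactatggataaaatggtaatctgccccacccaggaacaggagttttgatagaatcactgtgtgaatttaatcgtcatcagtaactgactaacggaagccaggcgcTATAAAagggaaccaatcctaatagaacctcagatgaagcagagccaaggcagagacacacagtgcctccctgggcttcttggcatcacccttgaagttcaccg
Zscan4d: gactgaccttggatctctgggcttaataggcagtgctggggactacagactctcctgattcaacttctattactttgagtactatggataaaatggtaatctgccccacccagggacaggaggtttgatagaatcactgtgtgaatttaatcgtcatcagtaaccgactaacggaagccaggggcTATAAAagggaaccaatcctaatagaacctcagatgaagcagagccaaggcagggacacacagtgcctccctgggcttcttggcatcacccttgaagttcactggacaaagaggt
TATAAA was searched on both strands and occurs in 13.6% of the 32851 promoters in that table. It begins 54 bases before the annotated start of Zscan4c and 65 before that of Zscan4d. The stretches hold 4 and 3 CG dinucleotides, against a median of 7 over all promoters.

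Other members of this list followed in their own levels. Tcstv3 had 0 and 0.82 normalized counts in conv-dSVA_D, 51.0 and 17.3 for conv-dSVA_F, 21.97 and 11.1 for conv-dSVA_F&D, and 172 for wild type. Its conv-dSVA_D values lay under the limit that a count of 0 allows. Calcoco2, an autophagy receptor gene, changed least among the called members, with 2623 and 3531 in conv-dSVA_D, 8513 and 4906 for conv-dSVA_F, 5186 and 5245 for conv-dSVA_F&D, and 6678 for wild type (-0.93 ± 0.20, adjusted p = 0.0476, limma). Eif1ad15, a member of a gene family expanded in mouse and named as related to translation initiation factor eIF1A, was outside the list and had 24.97 and 48.2 in conv-dSVA_D, 310 and 198 for conv-dSVA_F, 199 and 178 for conv-dSVA_F&D, and 1274 for wild type. Of the list, 2 genes were called with the 4 libraries as 1 group, 3 when conv-dSVA_F replicate 1 was left out and 3 when conv-dSVA_D replicate 2 was. With conv-dSVA_D replicate 1 left out limma called 0, with 12 at an unadjusted p under 0.05.

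A pair of epithelial keratin genes and Peg10 were also lower in conv-dSVA_D. Of 14 tested trophoblast markers 3 were called lower, Krt8, Krt18 and Peg10, and 0 higher, against 1.41% and 0.492% of all tested genes, with a median log2 difference of -1.86. Below the other 4 libraries lay 9 of the 14, against 12% of all tested genes. Krt8 and Krt18 encode the type II and type I keratins that pair in simple epithelia and are neighbours on chromosome 15. Krt8 (15:101996698-102004482, minus strand) had 67.2 and 93.1 normalized counts in conv-dSVA_D, 1765 and 609 for conv-dSVA_F, 320 and 508 for conv-dSVA_F&D, and 438 for wild type. Krt18 (15:102028180-102032027, plus strand) had 116 and 105 in conv-dSVA_D, 2310 and 734 for conv-dSVA_F, 448 and 497 for conv-dSVA_F&D, and 575 for wild type. For both keratins the wild type fell among the SVA_F-deleted libraries and conv-dSVA_D was apart, while the 2 conv-dSVA_F libraries differed widely from each other. The log2 differences were -3.02 ± 0.37 for Krt8 (adjusted p = 0.00776) and -2.81 ± 0.36 for Krt18 (adjusted p = 0.00833), by limma. Their RefSeq promoters on GRCm38.p6, chr15:102004293-102004592 (minus strand) and chr15:102027966-102028265 (plus strand), are shown because the pair moved together, with TATAAA or its reverse complement in capitals.
Krt8: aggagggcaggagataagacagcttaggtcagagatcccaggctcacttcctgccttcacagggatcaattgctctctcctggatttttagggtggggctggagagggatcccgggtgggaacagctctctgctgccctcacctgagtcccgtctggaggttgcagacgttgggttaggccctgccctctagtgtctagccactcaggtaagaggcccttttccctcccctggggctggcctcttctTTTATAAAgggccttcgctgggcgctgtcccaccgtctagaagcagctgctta
Krt18: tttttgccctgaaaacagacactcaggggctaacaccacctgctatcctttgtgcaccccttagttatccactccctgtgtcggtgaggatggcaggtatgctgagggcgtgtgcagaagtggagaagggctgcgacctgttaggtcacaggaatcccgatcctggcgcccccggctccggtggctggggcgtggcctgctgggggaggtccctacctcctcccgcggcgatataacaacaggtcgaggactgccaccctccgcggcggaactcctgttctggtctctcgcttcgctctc
In Krt8 a TTTATA and an overlapping TATAAA begin 3 and 1 bases before the annotated start, and Krt18 has no match in this window. The stretches hold 6 and 17 CG dinucleotides.

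Transcription factors of trophoblast did not pass. Cdx2 had 13.4 and 10.6 normalized counts in conv-dSVA_D, 168 and 77.2 for conv-dSVA_F, 10.99 and 109 for conv-dSVA_F&D, and 67.7 for wild type (adjusted p = 0.161, limma), so conv-dSVA_F&D overlapped conv-dSVA_D. Gata3 had 18.2 and 18.8 in conv-dSVA_D, 154 and 64.0 for conv-dSVA_F, 33.0 and 117 for conv-dSVA_F&D, and 48.0 for wild type (adjusted p = 0.103, limma). Eomes, at 445 and 400 in conv-dSVA_D and 253 to 479 in the other 4, overlapped. The summed level of the 10 defining trophoblast markers was 1102 and 1210 in conv-dSVA_D, 5504 and 2484 for conv-dSVA_F, 1833 and 2650 for conv-dSVA_F&D, and 1916 for wild type, and 8 of the 10 passed the level filter. Hand1 and Elf5 were at most 1.92 in conv-dSVA_D and at most 11.9 in the other 4. The part of such cells in the keratin result was not tested. Limma called 0 trophoblast members with the 4 libraries as 1 group (9 at an unadjusted p under 0.05) and 0 when conv-dSVA_D replicate 1 or 2 was left out (7 and 9 at an unadjusted p under 0.05). DESeq2 called 9 and edgeR 2.

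Imprinted genes held the largest difference among the named genes. Imprinted genes are expressed from the maternal or the paternal copy, a state set by DNA methylation in the germline that can be lost or altered in cultured stem cells. H19 (7:142575529-142578143, minus strand), a maternally expressed noncoding RNA, had 14.4 and 9.80 normalized counts in conv-dSVA_D, 2100 and 554 for conv-dSVA_F, 514 and 1432 for conv-dSVA_F&D, and 350 for wild type. Conv-dSVA_D was at least 33.4-fold below every other converted library, and the log2 difference was -6.22 ± 0.52 (adjusted p = 0.00514, limma). Peg10 (6:4747306-4760517), a paternally expressed gene derived from a retrotransposon and needed for the placenta, had 387 and 42.4 in conv-dSVA_D, 10105 and 2484 for conv-dSVA_F, 1032 and 1803 for conv-dSVA_F&D, and 594 for wild type. The spread within conv-dSVA_D was wide, the groups did not overlap, and the log2 difference was -4.33 ± 0.76 (adjusted p = 0.0264 by limma, 0.0518 by edgeR).

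Other imprinted genes moved in both directions. Over all tested genes 1.41% were called lower and 0.492% higher. Of 17 tested maternally expressed genes 2 were called lower, H19 and Ppp1r9a, and 1 higher, Grb10, with a median log2 difference of -0.11. Of 20 tested paternally expressed genes 3 were called lower, Peg10, Peg3 and Impact, and 0 higher, with a median of -0.22. Peg3, a zinc-finger gene, had 1176 and 937 normalized counts in conv-dSVA_D, 3534 and 2676 for conv-dSVA_F, 1856 and 2959 for conv-dSVA_F&D, and 2005 for wild type (-1.35 ± 0.19, adjusted p = 0.0135, limma). Ppp1r9a, encoding the actin-binding neurabin, had 234 and 270 in conv-dSVA_D, 642 and 559 for conv-dSVA_F, 363 and 437 for conv-dSVA_F&D, and 433 for wild type (-0.95 ± 0.17, adjusted p = 0.0253, limma). Both were below every other library here. Grb10, an adaptor that dampens insulin receptor signalling, had 2887 and 5723 in conv-dSVA_D, 727 and 1090 for conv-dSVA_F, 3201 and 2377 for conv-dSVA_F&D, and 3603 for wild type. Its conv-dSVA_D libraries overlapped conv-dSVA_F&D although it was called (adjusted p = 0.0325, limma), and the adjusted p was 0.0172 against conv-dSVA_F and 0.335 against conv-dSVA_F&D. With the 4 libraries as 1 group, limma called 1 maternally expressed gene and 0 paternally expressed genes (6 of these at an unadjusted p under 0.05). Peg10 and Ppp1r9a lie on chromosome 6 and Impact on chromosome 18, whose levels differed between libraries. By limma these genes passed against conv-dSVA_F and not against conv-dSVA_F&D (adjusted p = 0.0692, 0.0948 and 0.163). With chromosome medians set equal Peg10 and Ppp1r9a passed (0.0229 and 0.0256, limma) and Impact did not (0.0602).

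Further genes with large lower levels were a mitochondrial enzyme, an endocytic receptor and a guidance factor. Ckmt1, mitochondrial creatine kinase, had 32.6 and 58.8 normalized counts in conv-dSVA_D, 267 and 190 for conv-dSVA_F, 326 and 202 for conv-dSVA_F&D, and 338 for wild type (-2.43 ± 0.32, adjusted p = 0.0102, limma). Lrp2, encoding the receptor megalin, had 421 and 318 in conv-dSVA_D, 5304 and 2110 for conv-dSVA_F, 1025 and 1247 for conv-dSVA_F&D, and 983 for wild type (-2.41 ± 0.30, adjusted p = 0.00776, limma). In both genes conv-dSVA_D was below all other libraries, and Lrp2 showed the same wide conv-dSVA_F pair as the keratins. Sema5a, a transmembrane semaphorin, had 81.6 and 107 in conv-dSVA_D, 642 and 342 for conv-dSVA_F, 555 and 482 for conv-dSVA_F&D, and 336 for wild type (-2.39 ± 0.26, adjusted p = 0.00679, limma). Mbp, known for myelin and also transcribed in other forms outside glia, was the 1 of 11 tested neural markers called, at 18.2 and 29.4 in conv-dSVA_D, 183 and 128 for conv-dSVA_F, 92.5 and 148 for conv-dSVA_F&D, and 78.6 for wild type (-2.48 ± 0.36, adjusted p = 0.0142, limma).

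**Figure D2:**
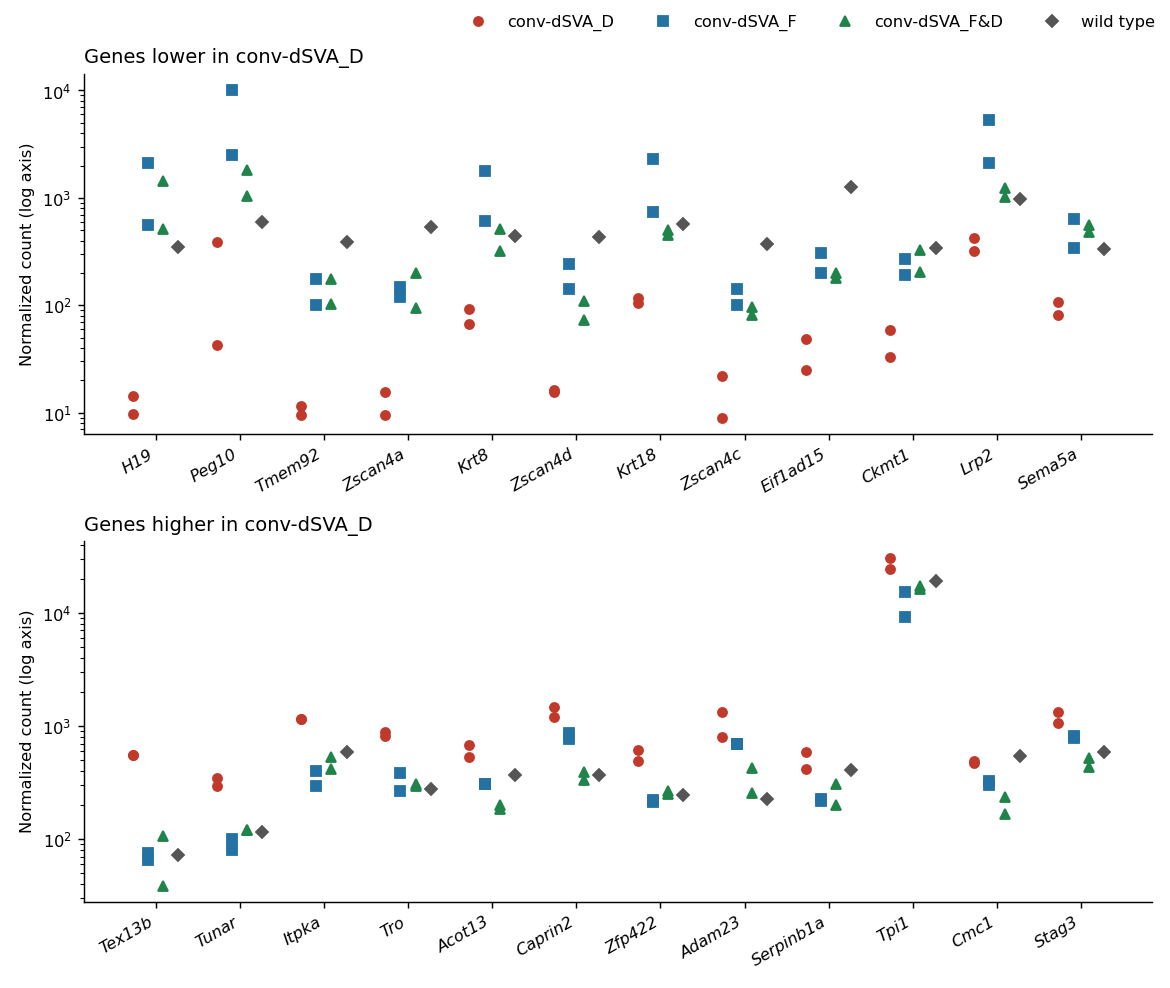
Normalized counts (log axis) in each library of the 12 named genes with the largest lower (top) and higher (bottom) log2 differences in conv-dSVA_D. Each point is 1 library, and for each gene the groups run from conv-dSVA_D (red circles) on the left to the wild type (grey diamonds) on the right. H19 shows the widest gap (14.4 and 9.80 against 514 to 2100), and Cmc1 is the gene of the lower panel whose wild-type value (548) exceeds conv-dSVA_D.

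The genes called higher in conv-dSVA_D were fewer than those called lower, and their differences were smaller. Tex13b (ENSMUSG00000042386, X:140808307-140813433, minus strand), a germline gene of the X chromosome, led the named genes. It had 559 and 557 normalized counts in conv-dSVA_D, 75.7 and 65.0 for conv-dSVA_F, 106 and 39.0 for conv-dSVA_F&D, and 72.0 for wild type. The wild type lay within the SVA_F-deleted range, and conv-dSVA_D was above all others by at least 5.20-fold (log2 difference 3.03 ± 0.37, adjusted p = 0.00740, limma). Tex13b and Tro were the 2 higher genes called with the 4 libraries as 1 group. Its RefSeq promoter, at chrX:140813384-140813683 (minus strand) of GRCm38.p6, is shown as that of the gene with the largest rise among those named. TATAAA was found on neither strand, and no letters are in capitals.
Tex13b: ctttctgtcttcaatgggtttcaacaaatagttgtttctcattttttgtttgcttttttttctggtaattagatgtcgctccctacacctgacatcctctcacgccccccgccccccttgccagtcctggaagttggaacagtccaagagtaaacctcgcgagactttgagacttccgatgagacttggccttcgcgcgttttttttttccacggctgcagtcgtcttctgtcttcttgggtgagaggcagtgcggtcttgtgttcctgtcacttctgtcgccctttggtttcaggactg
The stretch holds 13 CG dinucleotides. Of 34 tested germline genes known for silencing by DNA methylation, 1 was called higher (Tex13b) and 2 lower, and the median log2 difference was -0.41. The shares over all tested genes were 0.492% higher and 1.41% lower. Hormad1, of the meiotic chromosome axis, had 461 and 460 in conv-dSVA_D, 959 and 863 for conv-dSVA_F, 773 and 999 for conv-dSVA_F&D, and 1309 for wild type (-0.96 ± 0.14, adjusted p = 0.0147, limma). Fkbp6, an immunophilin needed for male meiosis in mouse, had 185 and 266 in conv-dSVA_D, 767 and 582 for conv-dSVA_F, 587 and 361 for conv-dSVA_F&D, and 673 for wild type (-1.32 ± 0.23, adjusted p = 0.0273, limma).

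Tunar, Itpka and Tro followed among the higher genes. Tunar, first described as a conserved noncoding RNA of stem cells, had 294 and 345 normalized counts in conv-dSVA_D, 80.0 and 99.5 for conv-dSVA_F, 120 and 121 for conv-dSVA_F&D, and 117 for wild type (1.61 ± 0.23, adjusted p = 0.0142, limma). Itpka, a kinase of inositol trisphosphate, had 1146 and 1149 in conv-dSVA_D, 296 and 397 for conv-dSVA_F, 531 and 415 for conv-dSVA_F&D, and 594 for wild type (1.51 ± 0.17, adjusted p = 0.00679, limma). Tro, the X-linked gene of the adhesion protein trophinin, had 819 and 888 in conv-dSVA_D, 265 and 388 for conv-dSVA_F, 310 and 297 for conv-dSVA_F&D, and 281 for wild type (1.45 ± 0.18, adjusted p = 0.00833, limma). In these genes the conv-dSVA_D libraries were above all others by at least 2.11-fold of the nearest converted library, and the wild type lay within the SVA_F-deleted range for Tunar and Tro and between the groups for Itpka. Stag3, the meiotic cohesin subunit, had 1057 and 1333 in conv-dSVA_D, 780 and 823 for conv-dSVA_F, 519 and 433 for conv-dSVA_F&D, and 595 for wild type (0.94 ± 0.15, adjusted p = 0.0166, limma). Adam23, a neuronal cell-surface protein gene, had 1341 and 804 in conv-dSVA_D, 699 and 692 for conv-dSVA_F, 258 and 422 for conv-dSVA_F&D, and 227 for wild type, and passed narrowly (adjusted p = 0.0497, limma).

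Enzymes of metabolism were named among the higher genes as well. Tpi1, the glycolytic triosephosphate isomerase, had 24186 and 30625 normalized counts in conv-dSVA_D, 9125 and 15308 for conv-dSVA_F, 17267 and 16392 for conv-dSVA_F&D, and 19068 for wild type (0.95 ± 0.18, adjusted p = 0.0364, limma). It was the 1 called gene of 27 tested glycolysis and hypoxia genes, whose median log2 difference was 0.05. Acot13, an acyl-CoA thioesterase, had 530 and 686 in conv-dSVA_D, 307 and 309 for conv-dSVA_F, 201 and 187 for conv-dSVA_F&D, and 367 for wild type (1.30 ± 0.17, adjusted p = 0.0116, limma). Cmc1, an assembly factor of cytochrome c oxidase, had 473 and 490 in conv-dSVA_D, 300 and 328 for conv-dSVA_F, 234 and 167 for conv-dSVA_F&D, and 548 for wild type (0.95 ± 0.18, adjusted p = 0.0365, limma). Here the SVA_F-deleted libraries lay below conv-dSVA_D and the wild type alike. By limma the difference from conv-dSVA_F alone did not pass (adjusted p = 0.187). Nor did that of the SVA_F-deleted mean from the wild type (adjusted p = 0.0772, limma). Serpinb1a, an inhibitor of neutrophil proteases, had 416 and 586 in conv-dSVA_D, 228 and 218 for conv-dSVA_F, 307 and 201 for conv-dSVA_F&D, and 411 for wild type (1.07 ± 0.22, adjusted p = 0.0449, limma).

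Pluripotency, signalling and housekeeping lists showed few calls, set against 0.492% called higher and 1.41% lower over all tested genes. Of 23 tested naive pluripotency genes 1 was called higher, Nanog, the homeodomain factor of the naive state, and 0 lower. Nanog had 28144 and 27769 normalized counts in conv-dSVA_D, 22731 and 20492 for conv-dSVA_F, 19514 and 16246 for conv-dSVA_F&D, and 20486 for wild type (0.51 ± 0.11, adjusted p = 0.0490, limma), and edgeR called 0 of the 23 genes while DESeq2 called 3. Of 19 formative and primed genes 1 was called lower, the DNA methyltransferase gene Dnmt3b, at 1981 and 1261 in conv-dSVA_D, 2934 and 2860 for conv-dSVA_F, 2435 and 2743 for conv-dSVA_F&D, and 2340 for wild type (-0.79 ± 0.16, adjusted p = 0.0414, limma). Dnmt3b was also the 1 called gene of 12 tested writers and erasers of DNA methylation. Of 21 retrotransposon silencing factors 1 was called higher, Resf1, a partner of the H3K9 methyltransferase SETDB1, at 8781 and 8313 in conv-dSVA_D, 6480 and 6388 for conv-dSVA_F, 5961 and 5835 for conv-dSVA_F&D, and 5489 for wild type (0.47 ± 0.09, adjusted p = 0.0325, limma). Nanog and Resf1 lie toward the end of chromosome 6, in stretches whose genes had median log2 differences of 0.33 and 0.37.

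No member was called by limma in the lists of ERK feedback (16 tested), immediate early (13), WNT target (18), primitive endoderm (14), feeder (10), mesoderm (5), p53 (19), unfolded protein response (21), G2 and M phase (22) and ribosomal protein genes (41). Over these 10 lists 44 members had an unadjusted p under 0.05, edgeR called 0 and DESeq2 14. Ascl2, a basic helix-loop-helix factor among the WNT targets, came nearest to the threshold, with 109 and 105 normalized counts in conv-dSVA_D, 227 and 175 for conv-dSVA_F, 215 and 325 for conv-dSVA_F&D, and 182 for wild type (adjusted p = 0.0567, limma). Sparc, a matrix glycoprotein gene among the primitive endoderm markers, had 7789 and 8744 in conv-dSVA_D, 12318 and 10933 for conv-dSVA_F, 10126 and 11976 for conv-dSVA_F&D, and 10241 for wild type (adjusted p = 0.0702, limma). Both lay below every other library. Fbn1, the fibrillin gene among the feeder markers, had 186 and 208 in conv-dSVA_D, 109 and 94.5 for conv-dSVA_F, 96.1 and 62.7 for conv-dSVA_F&D, and 72.0 for wild type (adjusted p = 0.0763, limma), and lay above every other library. Etv5, an ETS factor downstream of ERK, had 2955 and 2380 in conv-dSVA_D, 3304 and 4382 for conv-dSVA_F, 4607 and 3643 for conv-dSVA_F&D, and 5943 for wild type (adjusted p = 0.0884, limma). Lama1, a laminin of the basement membrane and a primitive endoderm marker, had 2848 and 2475 in conv-dSVA_D, 1509 and 1905 for conv-dSVA_F, 1828 and 1002 for conv-dSVA_F&D, and 929 for wild type (adjusted p = 0.0884, limma). Of the 41 ribosomal protein genes 11 lay below the other 4 libraries, against 12% of all tested genes, with a list median of -0.14. Rplp1 (40306 and 41339 in conv-dSVA_D, 50768 to 70997 in the other 4, 75097 in the wild type) did not pass (adjusted p = 0.0820, limma). Among dystonia genes the 1 of 19 called was Taf1. Hmgcs1 was the 1 called of 21 cholesterol synthesis genes (-0.45 ± 0.09, adjusted p = 0.0464, limma).

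**Figure D3:**
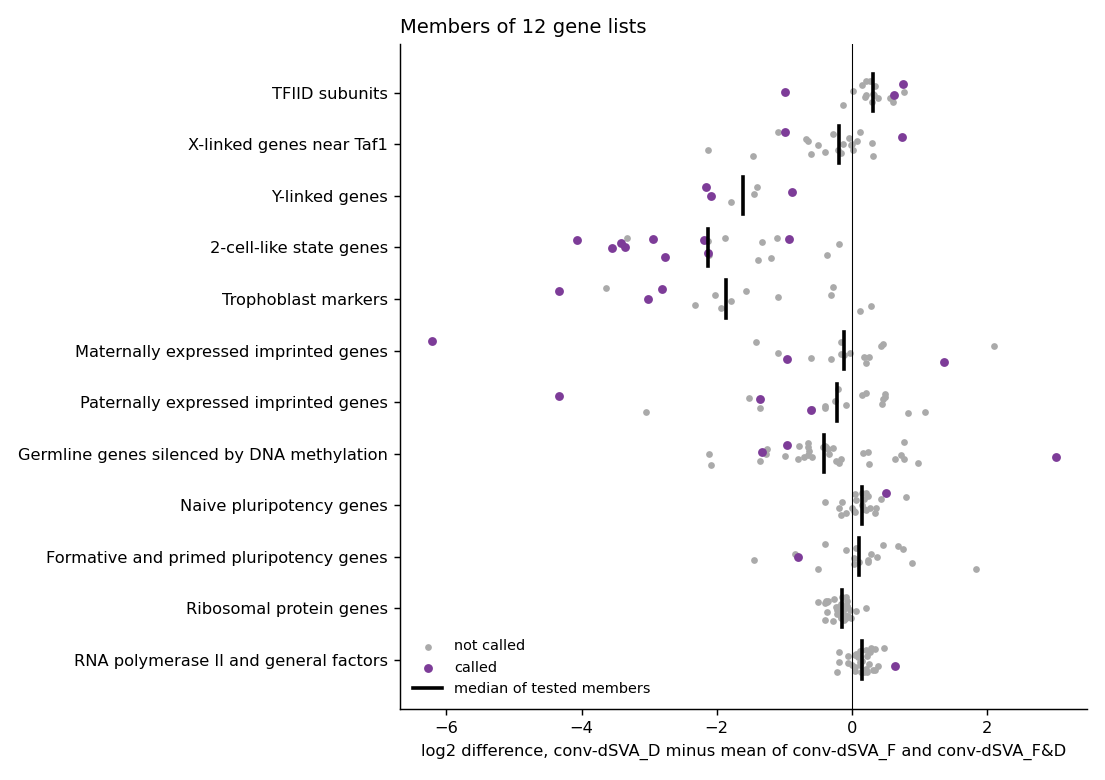
Log2 differences of conv-dSVA_D minus the mean of conv-dSVA_F and conv-dSVA_F&D (x axis) for the tested members of 12 gene lists. Grey points were not called, purple points were called, and black bars are medians over tested members, which run from -2.12 for the 2-cell-like list to 0.31 for TFIID.

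Genes around Taf1 on the X chromosome had few calls but lay more often below than above the other 4 libraries. Y-linked genes were lower in conv-dSVA_D. Of 22 tested X-linked genes near Taf1, 1 was called lower, Taf1, and 1 higher, Slc7a3, a transporter of cationic amino acids, against 1.41% and 0.492% of all tested genes. Below the other 4 libraries lay 10 of the 22, against 12% of all tested genes, and above them 2, against 11.5%. The median log2 difference of this list was -0.18, against 0.01 over all tested genes. Slc7a3 had 6720 and 6111 normalized counts in conv-dSVA_D, 2873 and 3867 for conv-dSVA_F, 3894 and 5047 for conv-dSVA_F&D, and 3858 for wild type (0.74 ± 0.14, adjusted p = 0.0371, limma). Of 6 tested Y-linked genes 3 were called lower, and the median was -1.61. Uba1y, a Y-linked copy of the ubiquitin-activating enzyme gene, had 180 and 149 in conv-dSVA_D, 342 and 523 for conv-dSVA_F, 1049 and 1227 for conv-dSVA_F&D, and 384 for wild type (-2.08 ± 0.20, adjusted p = 0.00547, limma). Uty, a paralogue of the histone demethylase gene Kdm6a, had 153 and 269 in conv-dSVA_D, 591 and 914 for conv-dSVA_F, 1047 and 1173 for conv-dSVA_F&D, and 737 for wild type (-2.15 ± 0.24, adjusted p = 0.00679, limma). Ddx3y, a DEAD-box helicase gene, had 890 and 940 in conv-dSVA_D, 1287 and 1387 for conv-dSVA_F, 2181 and 2131 for conv-dSVA_F&D, and 1491 for wild type (-0.89 ± 0.10, adjusted p = 0.00700, limma). All 3 were lowest in conv-dSVA_D and highest in conv-dSVA_F&D. With the median of each chromosome set equal among libraries, 0 Y-linked genes were called lower and Ddx3y was called higher (0.79, against -0.89 without that step). That step subtracts the shift of the Y-linked genes themselves, so the loss of lower calls follows from it and tests nothing about them.

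Many of the higher genes lay at 1 end of chromosome 6. Of the 75 called higher 25 (33.3%) lay on chromosome 6, which holds 4.78% of the tested genes, and all 25 start past 110 Mb. Chromosome 6 also held 20 genes called lower. Cut into 6 parts of nearly equal gene number, chromosome 6 had median log2 differences of -0.29, -0.35, -0.20 and -0.11 over the first 4 parts, and 0.33 and 0.37 over the last 2, which begin at 6:114282635. Against conv-dSVA_F alone the same parts had medians of -0.50, -0.50, -0.42, -0.32, 0.17 and 0.15, and against conv-dSVA_F&D -0.05, -0.07, 0.03, 0.07, 0.51 and 0.53. Caprin2, an RNA-binding protein gene of Wnt signalling at 6:148842492-148896237, had 1468 and 1202 normalized counts in conv-dSVA_D, 767 and 872 for conv-dSVA_F, 331 and 396 for conv-dSVA_F&D, and 369 for wild type. Zfp422, a zinc-finger gene at 6:116624016-116628999, had 491 and 609 in conv-dSVA_D, 214 and 223 for conv-dSVA_F, 253 and 265 for conv-dSVA_F&D, and 244 for wild type. In both genes the conv-dSVA_D libraries were above every other library. Tpi1, Nanog and Resf1, described above, start at 6:124810586, 6:122707489 and 6:149309414, within the same end of the chromosome.

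Whole-chromosome levels also differed between libraries that carry the comparison. Relative to the wild-type library, the median log2 difference of chromosome 6 genes was 0.15 and 0.14 in conv-dSVA_D, 0.41 and 0.36 for conv-dSVA_F, and 0.00 and -0.01 for conv-dSVA_F&D. Over chromosome 8 it was 0.07 and 0.24 in conv-dSVA_D, 0.63 and 0.44 for conv-dSVA_F, and 0.00 and -0.01 for conv-dSVA_F&D. Over chromosome 18 replicate 2 of conv-dSVA_F&D stood at 0.51, with the other 5 converted libraries between -0.10 and -0.03. On chromosome 8, 12 of 798 tested genes were called lower (1.5%), near the 1.41% over all tested genes, and 1 was called higher. On chromosome 18, 10 of 354 were called lower (2.82%). Without chromosomes 6, 8, 18 and Y, 217 genes were called, 168 lower and 49 higher, and with chromosome medians set equal 371 were called, 262 lower and 109 higher. That second setting subtracts 1 median per chromosome, so it cannot remove a difference between the 2 ends of chromosome 6. With it the log2 difference of Caprin2 rose from 1.29 to 1.36, of Tpi1 from 0.95 to 1.02 and of Nanog from 0.51 to 0.58. Peg10, at the start of chromosome 6, had a log2 difference of -4.26 (adjusted p = 0.0229, limma) with chromosome medians set equal, against -4.33 without that step.

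**Figure D4:**
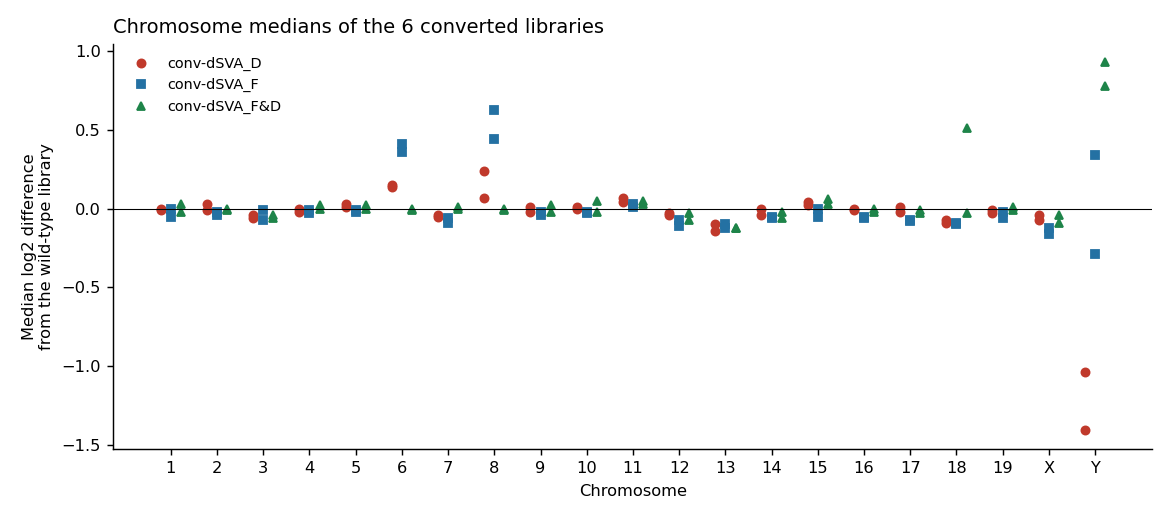
Median over the genes of each chromosome (mean of at least 50 normalized counts) of the log2 difference between a converted library and the wild type. Each point is 1 of the 6 converted libraries, with conv-dSVA_D (red) left of conv-dSVA_F (blue) and conv-dSVA_F&D (green). Chromosomes 6 and 8 are raised in conv-dSVA_F (0.36 to 0.63), chromosome 18 in 1 conv-dSVA_F&D library (0.51), and the Y chromosome is lowest in conv-dSVA_D (-1.04 and -1.41).

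The wild-type library took no part in the range rule or in the contrast, but its level counts in the mean of at least 10 by which genes were tested. Without it 134 of the 15240 tested genes have a mean under 10, among them 29 of those outside the range and 0 of the 290 called by limma. For 842 of the 3585 genes outside the range (23.5%), the wild type lay on the conv-dSVA_D side, at or past the nearest conv-dSVA_D library. It lay between for 486 (13.6%), within the range of the SVA_F-deleted libraries for 1491 (41.6%) and beyond them for 766 (21.4%). Among the 278 called genes outside the range the counts were 13 (4.68%), 61 (21.9%), 128 (46.0%) and 76 (27.3%). The wild type was therefore off the conv-dSVA_D side for 265 of the 278 (95.3%), set against 2743 of the 3585 (76.5%). Called genes were selected for a clear difference between conv-dSVA_D and the SVA_F-deleted lines. Across a wider gap any further library can be expected to fall past conv-dSVA_D less often. The contrast of these shares therefore tests nothing about the wild type. The 13 with the wild type on the conv-dSVA_D side included Cmc1, Coq3, Zfp951 and Zfp985, higher in conv-dSVA_D, and Gab1, Ina, Piezo1, Prtg, Rhou and Zbtb7b, lower in it. Gab1, a docking protein of receptor tyrosine kinases, had 2995 normalized counts in each conv-dSVA_D library, 6040 and 4916 for conv-dSVA_F, 4392 and 4261 for conv-dSVA_F&D, and 2773 for wild type. Coq3, of ubiquinone synthesis, had 1014 and 1121 in conv-dSVA_D, 718 and 604 for conv-dSVA_F, 640 and 600 for conv-dSVA_F&D, and 1028 for wild type.

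**Figure D5:**
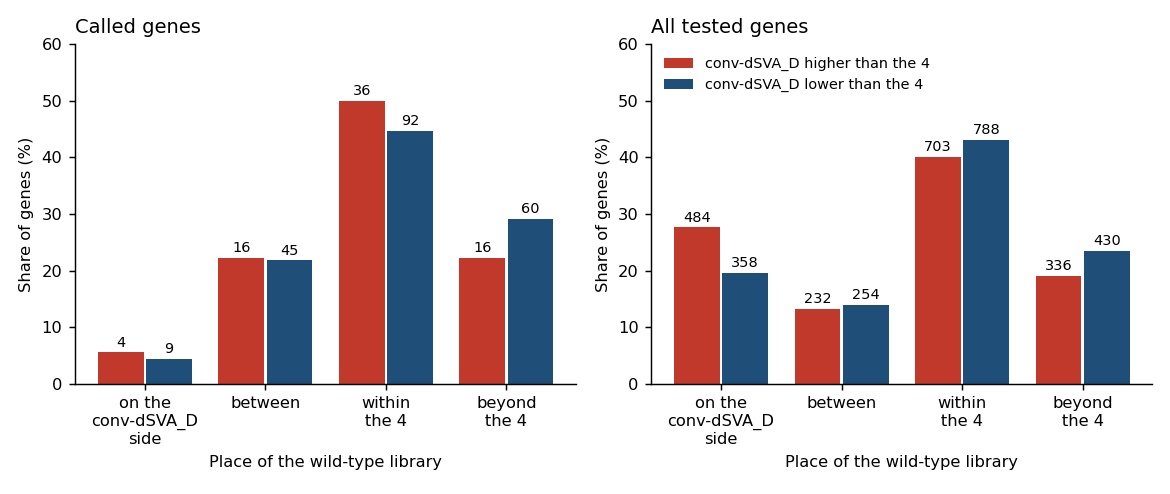
Share of genes (%, bars) by the place of the wild-type library relative to conv-dSVA_D and the 4 SVA_F-deleted libraries, for called genes (left) and for all tested genes outside the range (right). Red bars are genes higher and blue bars genes lower in conv-dSVA_D, with gene numbers above the bars. The wild type lies on the conv-dSVA_D side for 4 and 9 called genes.

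Set against the wild type directly, conv-dSVA_D had more called genes than the SVA_F-deleted mean had. Limma called 550 genes (3.61%) between conv-dSVA_D and the wild type, 325 lower (2.13%) and 225 higher (1.48%) in conv-dSVA_D. The mean of conv-dSVA_F and conv-dSVA_F&D against the wild type gave 34 (0.223%), 12 lower (0.0787%) and 22 higher (0.144%). That mean averages 2 lines, so a change in only 1 of them is diluted, while conv-dSVA_D is 1 line. Neither SVA_F-deleted line alone was set against the wild type, so how far each differs from it is not given by this count. The comparisons share the single wild-type library, whose spread was assumed equal to that of the other groups, and the difference between these counts was not tested. Split by line, conv-dSVA_D differed from conv-dSVA_F at 205 genes (1.35%), 165 lower (1.08%) and 40 higher (0.262%), and from conv-dSVA_F&D at 482 (3.16%), 298 lower (1.96%) and 184 higher (1.21%). Of the named genes, H19 passed against each line, with adjusted p-values of 0.00439 against conv-dSVA_F and 0.00407 against conv-dSVA_F&D, and Tex13b with 0.0193 and 0.0110 (limma). Caprin2 and Stag3 passed against conv-dSVA_F&D (0.00368 and 0.00942) and not against conv-dSVA_F (0.0825 and 0.137), and conv-dSVA_F had levels between the other lines.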

How the data were processed

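The deposited signal is a table of gene counts that the authors divided by 1 size factor per library, as its values show. Per the submitters' processing notes the tools were featureCounts 1.6.3 and DESeq2, with STAR 2.7.3, Trimmomatic 0.36, deepTools 3.1.0 and Picard 2.18.20, on mm10. What each did, the strand setting and the annotation are not given in the sources used here. Per the labels, libraries were stranded total RNA. Read numbers were recovered by dividing each column by its smallest step, and 100% of the 18411 to 21515 values checked per library lay within 0.1 read of a whole number. EdgeR 4.0.16 on these reads called 253 genes.

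Limma 3.58.1 (R 4.3.3) with a variance trend was fitted to log2 of the normalized count plus 1 for 15240 genes with a mean of at least 10. The fit had 1 mean per group, with 3 residual and 6.80 prior degrees of freedom. It was also run on simulated counts that held no differences between the other lines, and that outcome is not reported here. Tests were two-sided. Log2 differences understate changes of genes with few reads. Positions come from GENCODE M21, which matched 50716 of 54456 gene names (93.1%). Of 591 list entries 582 were in the table. Genes were named by a rule: Taf1, up to 12 per direction with the largest log2 difference among called genes with a mean of at least 100 outside the range, without predicted, clone and pseudogene names, and up to 4 called members of each list, or the 2 with the smallest p. Gab1, Coq3 and the other genes named with the wild type on the conv-dSVA_D side were named after their values were seen, as were Cdx2, Gata3, Eomes, Tcstv3 and Calcoco2. Members and lists were chosen with earlier results of these data known. Alternatives were another scaling, filter, pseudocount, test and grouping, DESeq2 1.42.0, chromosome centring, and leaving out each library.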

Additional observations from a re-analysis of the deposited data

Results flagged for a closer look

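In 4 of 63 named genes, 1 of the 4 SVA_F-deleted libraries stood far from the other 3 by Dixon's test at its 95% critical value, which chance alone gives in about 1 of 20 genes. In 3 of the 4 it was conv-dSVA_F replicate 1. Peg10 had 10105 normalized counts there and 1032 to 2484 in the other 3. Krt18 had 2310 there and 448 to 734 in the others. Eif1ad15 had 310 there and 178 to 199 in the others. Taf6 had 1662 in conv-dSVA_F replicate 2 and 1288 to 1304 in the others. In each gene the conv-dSVA_D libraries lay outside the range of all 4: 387 and 42.4 for Peg10, 116 and 105 for Krt18, 24.97 and 48.2 for Eif1ad15, and 2222 and 2039 for Taf6. Peg10, Krt18 and Eif1ad15 were named among the largest differences by a rule that required this, so for them it is no separate result.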

How the results depend on the processing

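The count of 290 genes (215 lower, 75 higher in conv-dSVA_D) became 14 with the 4 SVA_F-deleted libraries as 1 group, 761 with DESeq2, 1 without the variance trend and 0 by limma without the filter on low levels (3581 at an unadjusted p under 0.05). Leaving out 1 library gave 0 to 478: 0 and 31 without conv-dSVA_D replicate 1 or 2, 29 and 145 without conv-dSVA_F replicate 1 or 2, 478 and 396 without conv-dSVA_F&D replicate 1 or 2. The other settings gave 217 to 371. Against the wild type the 550 became 1048 with DESeq2, 996 without the filter and 3 without the trend, and 12 to 972 when 1 library was left out. The 3585 genes outside the range became 363 with a 1.5-fold gap. Taf1 stayed at -0.99 but did not pass with the 4 libraries as 1 group (adjusted p = 0.302), without the filter (0.155) or without the trend (0.165), and ranged from -1.09 to -0.89 when 1 library was left out, passing except without either conv-dSVA_D library. Of 43 called named genes, 39 were also called by edgeR (all but Peg10, Nanog, Dnmt3b and Hmgcs1, at adjusted p = 0.0509 to 0.0561), 43 by DESeq2, 40 with chromosome medians set equal, 8 with the 4 libraries as 1 group, and 0 and 9 without conv-dSVA_D replicate 1 or 2. Ddx3y, among the 40 called with chromosome medians set equal, reversed to 0.79 there, a step that subtracts the shift of the Y-linked genes themselves. Mixl1, not called, reversed to -0.06 without conv-dSVA_F&D replicate 2 (range -0.06 to 1.93 over the left-out libraries). The counts of list members under each setting were added after the data were seen. The cause of these changes was not tested. No paired analysis was possible because the library titles carry no replicate numbers.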

Other observations

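Gene families that share a name stem, chosen after their values were seen, were counted over all tested members. Of 9 Zscan4 genes and pseudogenes 7 were called lower in conv-dSVA_D and all 9 lay below the other 4 converted libraries, set against 1.41% and 12% of all tested genes. Of 16 Eif1ad genes 4 were called lower and 9 lay below the other 4 (median log2 difference -2.44), and of 13 Pramel genes 3 were called and 7 lay below (median -2.17). Limma called 0 higher in either family. Reads may be shared among the near-identical copies of each family.

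Both tested Y RNA genes and the gene of a protein that binds them, also chosen after their values were seen, were called lower in conv-dSVA_D. Lower calls extended to snoRNA genes. Of 116 tested, limma called 9 lower and 0 higher, against 1.41% lower over all tested genes. By limma 32 of the 116 had an unadjusted p under 0.05, and edgeR called 8 and DESeq2 15. Of 31 snRNA genes limma called 0 (6 at an unadjusted p under 0.05, 0 by edgeR and 1 by DESeq2). The abundant 7SK had a log2 difference of -0.03 (adjusted p = 0.968, limma). Rny1, a Y RNA gene, had 1221 and 1660 normalized counts in conv-dSVA_D, 3521 and 2748 for conv-dSVA_F, 3444 and 6844 for conv-dSVA_F&D, and 6092 for wild type. Rny3, the second tested Y RNA gene, had 2528 and 3606 in conv-dSVA_D, 6852 and 4868 for conv-dSVA_F, 6249 and 8378 for conv-dSVA_F&D, and 8997 for wild type. Ro60, which encodes the protein that binds Y RNAs, had 274 and 282 in conv-dSVA_D, 546 and 516 for conv-dSVA_F, 570 and 585 for conv-dSVA_F&D, and 527 for wild type. The log2 differences were -1.45 ± 0.24, -1.10 ± 0.18 and -0.99 ± 0.14 (adjusted p = 0.0210, 0.0210 and 0.0135, limma). Rny1 and Rny3 lie on chromosome 6. How well short RNAs were retained in each library was not analysed here.

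Fgf2, a fibroblast growth factor gene, fell under the level limit for naming and had the largest higher difference of any called gene. It had 145 and 152 normalized counts in conv-dSVA_D, 17.9 and 14.2 for conv-dSVA_F, 3.66 and 0 for conv-dSVA_F&D, and 19.6 for wild type (4.63 ± 0.70, adjusted p = 0.0166, limma). All conv-dSVA_D values were above all others, and the fitted size depends on the added count of 1. Sgk1, a kinase downstream of growth factor signalling, had 11579 and 10999 in conv-dSVA_D, 6902 and 7413 for conv-dSVA_F, 5219 and 4571 for conv-dSVA_F&D, and 5774 for wild type (0.93 ± 0.10, adjusted p = 0.00591, limma).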
